A study of Mus musculus with 20 samples.

Results

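Isolated intestinal epithelial cells of MyD88 knockout mice were compared with those of wild type mice by Agilent single-colour microarray, using the 4 arrays labelled MyD88 KO and the 4 labelled wt out of 20 arrays in the whole study. Each array held the RNA of a single animal, and the animals of both groups were healthy, untreated and 28 days old, with the strain label C57BBL6. The other 12 arrays came from animals with the Trif LPS/LPS allele (labelled Trif mut), Tlr4 KO and Tlr3 KO, 4 each, of the same age and strain label, and served to estimate the spread and to set the MyD88 values beside those of other mutants. The labels give neither the sex nor the housing of the animals, nor the gut region, nor whether MyD88 was deleted in all cells or in the epithelium alone. The cells had been released with EDTA and enriched by sedimentation, and flow cytometry had found few CD45+ leukocytes among them.

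MyD88 is the adaptor that carries signals from most Toll-like receptors and from the receptors of IL-1, IL-18 and IL-33 to the IRAK kinases, TRAF6 and NF-kappaB. TRIF, encoded by Ticam1, is the other main adaptor and serves TLR3 and, in endosomes, TLR4. In the gut, MyD88 is known to link the resident bacteria to the production of antimicrobial proteins, both in epithelial cells and through immune cells whose IL-22 acts on the epithelium through STAT3.

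Epithelial identity genes (Epcam, Villin, keratins and others) gave high signal. All 14 of 14 were above background on all 8 arrays, as were 17699 of the 21910 features tested. Their summed signal ranged from 1208 to 1597 in wild type and from 1527 to 1700 in MyD88 knockouts, in multiples of each array's 75th percentile. Signals below are log2 values relative to that percentile, a difference is MyD88 knockout minus wild type with its standard error (SE), and "rose" or "fell" means a Benjamini-Hochberg adjusted p under 0.05 in a limma fit of all 20 arrays, 4 per genotype. Of 21910 features tested, 10805 (49.3%) passed, 8087 higher (36.9%) and 2718 lower (12.4%), with a median difference of 0.30, so that a call by itself sets no gene apart. Quantile normalization gave 4901 higher (22.4%) and 3371 lower (15.4%) with a median of 0.11, normexp background correction 1670 higher (7.62%) and 1196 lower (5.46%), and median scaling 3294 higher and 6312 lower with a median of -0.10, so the higher share of the calls moved from 74.8% to 59.2%, 58.3% and 34.3%. The MyD88 arrays were scanned on another day and another scanner than the other 16 arrays and sat on slides of their own, and 71.2% to 85.7% of their spots were well above background against 65.1% to 69.3% in wild type. Scan, slide and genotype therefore cannot be told apart, here or against the other mutants. Sex cannot be told apart from genotype either: Xist was at 1.88 to 2.18 in wild type and at -8.47 to -6.26 in MyD88 knockouts, and Eif2s3y, on chromosome Y, was not well above background in wild type and at least 345-fold higher in MyD88 knockouts.

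Myd88 itself, read by a probe on chromosome 9 from 119245322 to 119245381 (mm9), gave 2.17, 1.94, 2.20 and 2.21 in the wild type animals and 1.02, 0.80, 0.80 and 0.80 in the knockouts. The groups did not overlap, yet the probe stayed well above background in all 4 knockouts. The difference was -1.27 ± 0.11 (SE, adjusted p = 1.6e-06 by limma), and the knockouts were also lower than the Trif mutants by -1.11, the Tlr4 knockouts by -1.25 and the Tlr3 knockouts by -1.44. The labels do not say which part of the gene was deleted or whether the probe lies in it.

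Among 27 measured adaptors, kinases and inhibitors of the pathway (29 listed), 13 fell and 5 rose, beside 12.4% lower and 36.9% higher over all features. The median difference was -0.30 against 0.30 over all features. The adaptor Ticam1 fell by 0.45 ± 0.13 (SE, adjusted p = 0.0097 by limma), from 1.20, 1.35, 1.55 and 1.26 to 0.91, 0.63, 0.94 and 1.07. Of the kinases downstream of MyD88, Irak4 fell by 0.48 and Irak2 by 0.76, and of the TAK1 complex, Tab2 fell by 0.82, Tab3 by 0.69 and Map3k7, the kinase TAK1 itself, by 0.42. The IKK subunit Chuk fell by 0.67 and Tbk1, the kinase that activates IRF3, also by 0.67. Irf7, an interferon-induced transcription factor that MyD88 can activate, fell most, by 1.45 ± 0.26 (adjusted p = 0.00039). Small falls of Peli1 (-0.45), Tirap (-0.33), the sorting adaptor of TLR2 and TLR4, and Rela (-0.30), an NF-kappaB subunit, passed too. Of the risers, Ikbkg differed by 0.62, Traf3 by 0.37, and the inhibitors Irak3 and Sarm1 by 0.57 and 0.70, while Irf5 differed by 0.38. Irak1, Traf6 and Nfkb1 did not pass, with differences of 0.00, -0.10 and -0.16. After median scaling 19 fell and 0 rose, and after normexp 5 fell and 0 rose. Leaving out wild type replicate 1 or MyD88 replicate 1 or 3 left 2 rises, and wild type replicate 2, 3 or 4 left 3. The calls of Peli1 (without wild type replicate 2, 3 or 4 or MyD88 replicate 1 or 2), Tirap (without wild type replicate 1, 3 or 4 or MyD88 replicate 1, 3 or 4), Irak3 (without wild type replicate 1, 3 or 4 or MyD88 replicate 1 or 3), Sarm1 (without wild type replicate 1, 2 or 4 or MyD88 replicate 1 or 3), Irf5 (without any array other than wild type replicate 4) and Rela (without any of the 8 arrays) were lost, at adjusted p of 0.052 to 0.138. Normexp also ended the calls of Ticam1, Irak2, Map3k7, Chuk, Tbk1, Ikbkg and Traf3. With Xist as a covariate the calls of Tab3, Map3k7, Traf3, Irak3, Sarm1 and Irf5 were lost (adjusted p = 0.067 to 0.62 by limma).

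Of 16 measured Toll and IL-1 family receptors and co-receptors (24 listed; Tlr4 is not among the features analysed here), 6 rose and 0 fell, with a median of 0.50, and 6 of 16 is close to the 36.9% higher over all features. Tlr5, the flagellin receptor, rose from -5.07, -4.91, -4.81 and -5.09 to -1.87, -4.14, -2.32 and -2.62, by 2.24 ± 0.34 (SE, adjusted p = 0.00012 by limma), with no overlap. It was also higher than in the Trif mutants, Tlr4 knockouts and Tlr3 knockouts, by 2.08, 2.47 and 1.96. Tlr2, the lipopeptide receptor, rose by 1.46 ± 0.36 (adjusted p = 0.0036), from -2.76 to -1.73 in wild type to -1.16 to -0.06 in the knockouts. It was higher than in Trif mutants by 4.93 and differed from Tlr4 knockouts by 0.26 (adjusted p = 0.57). Both receptors lost the call after normexp (adjusted p = 0.087 and 0.08). The IL-18 receptor chain Il18r1 rose by 1.33, the IL-1 receptor Il1r1 by 1.26, the endosomal Toll chaperone Unc93b1 by 0.63 and Ly86 by 0.70. Il18r1 lost its call after quantile normalization (0.61, adjusted p = 0.18 by limma), cyclic loess (0.52, adjusted p = 0.25) and normexp (0.30, adjusted p = 0.78), and Il1r1 and Ly86 lost theirs after each of these and after median scaling, as Unc93b1 did after median scaling. Il1r1 was above background on 1 of 4 wild type arrays and lost its call without wild type replicate 2, 3 or 4 or MyD88 replicate 2 (adjusted p = 0.052 to 0.11). Tlr3 differed by -0.13 (adjusted p = 0.45), and quantile normalization left 3 rises, median scaling 3 rises and 4 falls.

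The rule named the 12 largest mean falls among genes whose 4 knockout arrays all lay below the 4 wild type arrays, leaving out 5 sex-linked genes, Xist and Eif2s3y among them, and these values chose the 12. They were Retnlb, Saa1, Saa2, Saa3, Cpn2, Cyp1a1, B3galt5, Gml, Gml2, Lrg1, Fut2 and Papss2. The serum amyloid A genes Saa1, Saa2 and Saa3, which encode acute-phase, retinol-binding and bactericidal proteins, lie close together on chromosome 7. Saa1 (53996070 to 53996129, mm9) read 4.77, 5.52, 5.81 and 3.66 in wild type and 2.15, 0.03, 0.97 and 0.04 in the knockouts, a difference of -4.14 ± 0.55 (SE, adjusted p = 4.3e-05 by limma). Saa2 read 5.02, 5.56, 5.96 and 3.86 against 2.02, -0.63, 0.68 and -1.17, a difference of -4.87 ± 0.66. Saa3 read 1.96, 2.64, 3.04 and 0.88 against -0.95, -3.24, -2.14 and -3.68, a difference of -4.63 ± 0.62. In all 3, wild type replicate 4 was the lowest of its group and MyD88 replicate 1 the highest of its own. Saa1 and Saa2 are near-identical copies whose probes may not separate them.

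The other mutants placed these falls differently. Against the Tlr4 knockouts the MyD88 knockouts were lower by -2.34, -2.97 and -2.63 for Saa1, Saa2 and Saa3 (adjusted p of 0.0022 to 0.0032), and against the Tlr3 knockouts by -4.20, -4.88 and -4.75. Against the Trif mutants they were higher, by 1.81, 4.12 and 4.30 (adjusted p = 0.0087, 4.8e-05 and 1.8e-05). By group mean, the order from the highest level was wild type and Tlr3 knockout, Tlr4 knockout, MyD88 knockout and Trif mutant. These 3 contrasts share the MyD88 arrays, and over all features they called 64% against Trif mutants, 47.6% against Tlr4 knockouts and 58.6% against Tlr3 knockouts.

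Retnlb, which encodes the goblet cell peptide RELM-beta that binds Gram-negative bacteria, had the largest fall of the genes named by the rule. It read 0.86, 0.15, 0.65 and 0.74 in wild type and -4.87, -5.04, -3.90 and -6.18 in the knockouts, 48.6-fold lower, with a difference of -5.60 ± 0.79 (SE, adjusted p = 6.5e-05 by limma). The knockouts were below the Tlr4 knockouts by -3.82, and differed from the Tlr3 knockouts by -1.73 (adjusted p = 0.07) and from the Trif mutants by 2.28 (adjusted p = 0.019). The last difference turned to -0.41 after normexp (adjusted p = 0.54). Lrg1, a secreted glycoprotein of the acute phase, fell by 3.71 ± 0.53, and the knockouts differed from Trif mutants by 0.82 (adjusted p = 0.18). Cpn2, the regulatory subunit of carboxypeptidase N, read 1.17, -0.03, 1.27 and 1.06 against -3.61, -4.63, -3.49 and -3.04 and fell by 4.56 ± 0.48. The knockouts were lower in Cpn2 than the Tlr4 and Tlr3 knockouts, by -1.84 and -2.26, and differed from Trif mutants by 0.56 (adjusted p = 0.31).

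**Figure D1:**
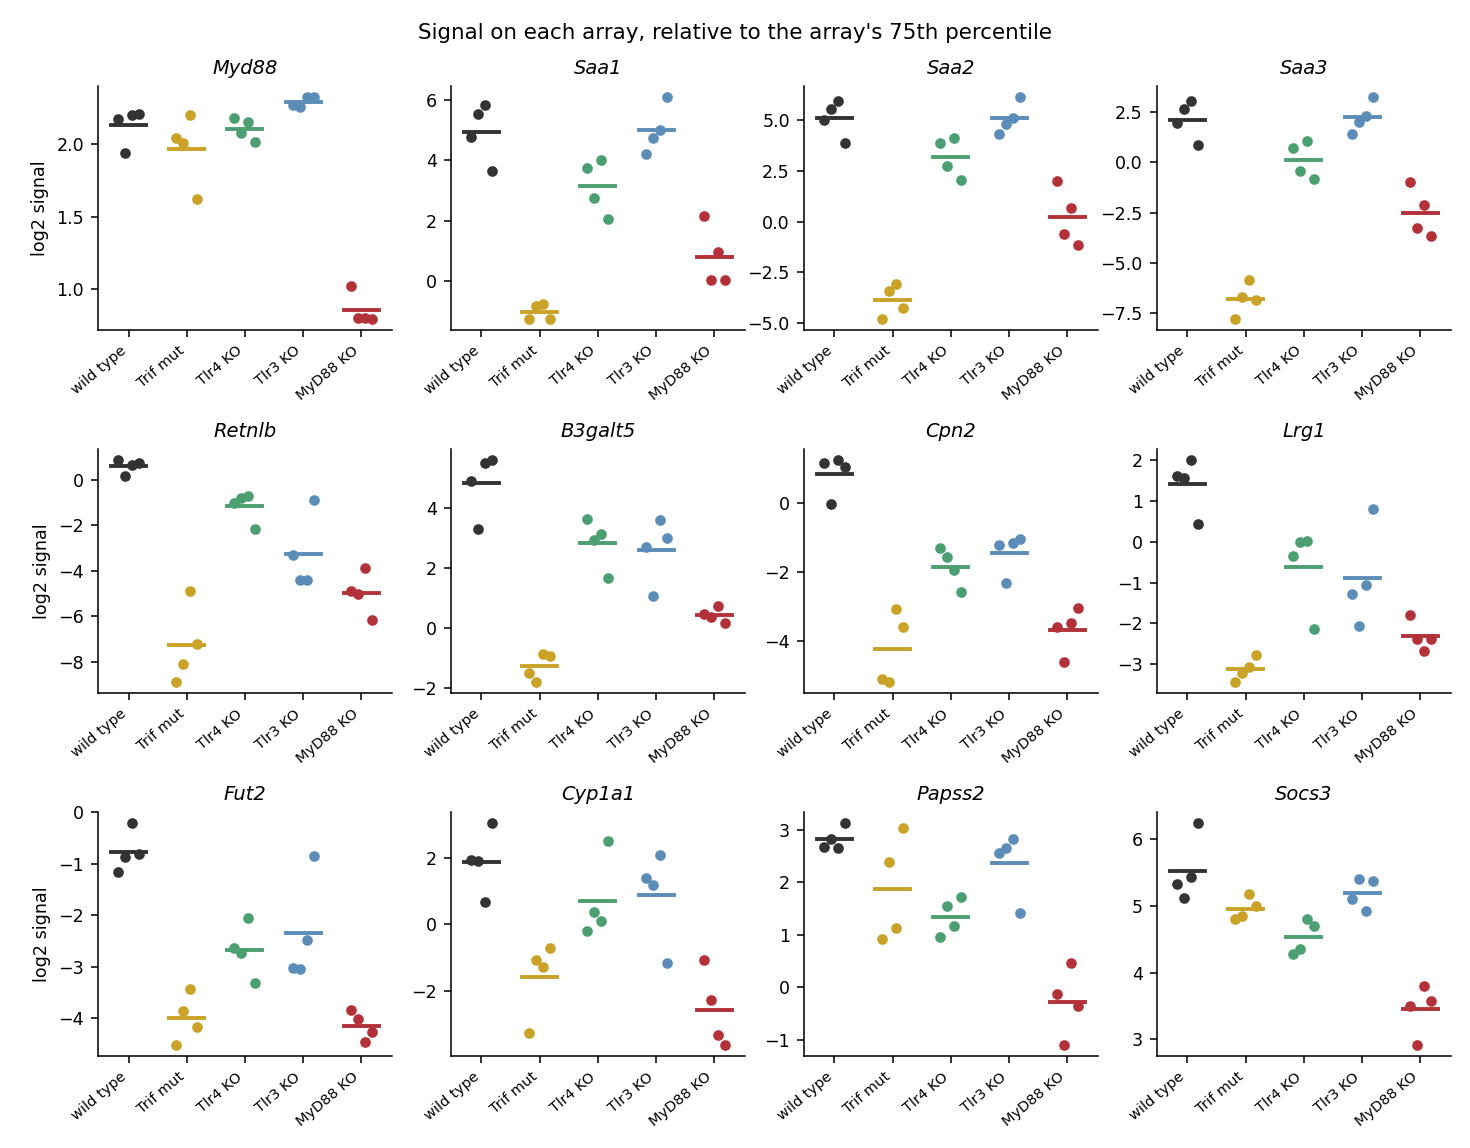
Log2 signal relative to the array's 75th percentile (vertical axis) of Myd88 and 11 genes that fell, in the 5 genotypes on the horizontal axis; each point is an array and each line the mean of 4 arrays. The MyD88 knockouts lie below wild type in every panel, and in Saa1, Saa2, Saa3 and B3galt5 the Trif mutants lie lower still.

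B3galt5, Fut2 and Papss2, also among the 12, encode enzymes that build or modify glycans. B3galt5, a galactosyltransferase that extends mucin and glycolipid chains, read 4.89, 3.29, 5.52 and 5.60 in wild type and 0.46, 0.35, 0.74 and 0.16 in the knockouts. It fell by 4.40 ± 0.54 (SE, adjusted p = 2.2e-05 by limma), 21.1-fold, and the knockout values lay closer together than those of wild type. The knockouts were above the Trif mutants by 1.72 and below the Tlr4 and Tlr3 knockouts by -2.40 and -2.16. Fut2, the fucosyltransferase that puts fucose on the epithelial surface and mucus, read -1.16, -0.87, -0.21 and -0.81 against -3.85, -4.02, -4.46 and -4.28 and fell by 3.39 ± 0.40. A further Fut2 probe differed by -0.70. Papss2, which makes the sulphate donor for mucin sulphation, read 2.66, 2.83, 2.65 and 3.12 against -0.12, -1.10, 0.45 and -0.35, an 8.57-fold fall with no overlap, and was lower than in all 3 other mutants, by -2.15 against Trif mutants, -1.62 against Tlr4 knockouts and -2.64 against Tlr3 knockouts. Among 28 measured mucosal glycosyltransferases (32 listed), 8 fell and 3 rose, with a median of -0.12. Over all features 12.4% fell and 36.9% rose. Gcnt3, the mucin core branching enzyme, fell by 1.91 ± 0.26 and B3gnt7, which elongates keratan sulphate chains, by 1.28 ± 0.29. The B3gnt7 call was lost after normexp (adjusted p = 0.11).

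The remaining named falls were of diverse kinds. Cyp1a1, the cytochrome induced through the aryl hydrocarbon receptor, read 1.92, 1.89, 0.68 and 3.04 against -1.06, -2.27, -3.34 and -3.63 and fell by 4.46 ± 0.79 (SE, adjusted p = 0.00034 by limma). Of 10 measured genes of that receptor's battery, 2 fell (1 without wild type replicate 1, 2 or 4 or MyD88 replicate 1, 3 or 4) and 1 rose. Gml and Gml2, neighbouring genes of the Ly6 family on chromosome 15, fell by 4.21 ± 0.46 and 3.42 ± 0.38. Of the bright features, those above background on all 8 arrays and over the 75th percentile in either group, 3 further genes were among the 12 largest falls. Aph1a, a subunit of gamma-secretase, fell by 2.79 ± 0.15 (adjusted p = 1.2e-08), with 1.24 to 1.48 in wild type and -1.70 to -1.19 in the knockouts, and was lower than in the Trif mutants, Tlr4 knockouts and Tlr3 knockouts, by -2.52, -1.68 and -1.72. A further Aph1a probe differed by -2.74. Arhgef10l fell by 2.72, but a further probe differed by 0.02. The probe for 18S ribosomal RNA, Rn18s, fell by 2.51, from between 8.22 and 8.87 to between 4.94 and 6.75.

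Genes of the IL-22, IL-17 and STAT3 axis, which carries immune signals to the epithelium, fell more often than they rose. Of 24 measured (25 listed), 13 fell and 3 rose, with a median of -0.42. Over all features 12.4% fell and 36.9% rose, with a median of 0.30. After normexp 12 fell and 1 rose, beside 5.46% lower and 7.62% higher over all features. Without wild type replicate 1 or 4 or MyD88 replicate 1 or 4 there was 1 rise. Stat3, the transcription factor of the axis, read 3.20, 3.08, 3.63 and 3.35 in wild type and 1.82, 1.46, 1.82 and 1.77 in the knockouts, a fall of 1.60 ± 0.22 (SE, adjusted p = 5.2e-05 by limma). Socs3, its feedback inhibitor and direct target, read 5.32, 5.12, 5.43 and 6.24 against 3.50, 2.91, 3.80 and 3.58 and fell by 2.08 ± 0.22. Neither gene's groups overlapped, and both were lower than in each other mutant: Stat3 by -1.93, -1.15 and -1.53 and Socs3 by -1.51, -1.09 and -1.75 against Trif, Tlr4 and Tlr3.

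The cytokines of this list that signal through MyD88-dependent receptors were lower too. Il18 fell by 1.69 ± 0.21 (SE, adjusted p = 2.4e-05 by limma), from 4.21, 3.93, 4.41 and 4.31 to 2.39, 2.11, 2.99 and 2.62, and Il33 by 1.65 ± 0.20, from 3.13, 2.72, 3.36 and 3.61 to 1.23, 1.28, 2.01 and 1.70. Il18bp, the decoy that binds IL-18, fell by 2.03 ± 0.30, with wild type replicate 4 at 1.60 above the others at 0.11 to 0.33. Il18bp differed from Trif mutants by 0.31 (adjusted p = 0.38), whereas Il18 and Il33 were below the Trif mutants by -1.27 and -1.54. Lifr, a receptor chain for LIF, fell by 1.87, a call lost without MyD88 replicate 1 (adjusted p = 0.056). The receptor chain Il17re, which binds IL-17C, rose by 1.39, and the IL-22 receptor chain Il22ra1 differed by 0.34 without passing.

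Type I interferon-stimulated genes, the antiviral programme of the cell, were lower. Of 42 measured (44 listed), 35 fell and 0 rose, with a median of -0.96, against 12.4% of all features lower. In 27 of them the 4 knockout arrays all lay below the 4 wild type arrays, as in 11.4% of all features, and 0 lay all above, as 30.5% of all features did. Isg15, a ubiquitin-like modifier, read 2.90, 2.48, 2.85 and 3.67 in wild type and 0.51, 1.01, 1.10 and 0.50 in the knockouts, a fall of 2.20 ± 0.31 (SE, adjusted p = 6.5e-05 by limma). Trim30a fell by 2.10, the RNA-sensing synthetase Oas2 by 1.98, the antiviral enzyme Rsad2 by 1.93 and the RNA-binding protein Ifit1 by 1.87 ± 0.34. Oas3 fell by 1.67 and the helicase Ddx60 by 1.40. Transcription factors of the list that fell included Irf7 (-1.45), Stat2 (-1.10) and Irf9 (-0.65). Mx1 differed by -0.22 and Ifitm3 by 0.19, and neither passed.

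Wild type replicate 4 carried the highest mean of this list, 2.30 against 1.28 to 1.51 in the other wild type animals and 0.32 to 0.78 in the knockouts. Without it 27 of the 42 fell and the median was -0.76, and the Isg15 and Ifit1 calls stayed. Bst2, a tetherin that holds virus at the cell surface, fell by 0.81, a call lost without wild type replicate 4 or MyD88 replicate 1 or 3 (adjusted p = 0.057 to 0.076). Quantile normalization left 33 falls, normexp 24 and the Xist signal as a covariate 30, each with 0 rises. The slope of that covariate comes from differences within genotypes, so the adjustment holds only if sex acts alike in all of them. That was not tested. Under this covariate Eif2s3y differed by 0.64 (adjusted p = 0.37 by limma). Isg15 was also lower than in the Trif mutants, Tlr4 knockouts and Tlr3 knockouts, by -1.36, -1.27 and -2.42 (adjusted p = 0.0011, 0.0038 and 9.3e-06), and Ifit1 by -1.20, -1.09 and -1.95.

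Interferon-stimulated genes are known for a promoter element bound by a complex that holds STAT2 and IRF9, and promoter stretches of 6 genes that fell are shown for that reason. RefSeq promoter windows (GRCm38.p6, 250 bases before to 50 after the start) were matched by symbol for 32 of the 42 genes. The element was searched on both strands as GAAA, any 2 bases, then GAAA again, and occurred in 15 of these 32 (46.9%), in 3.75% of 13243 tested genes with a window and in 3.44% of all 32851 windows. Capitals mark each match, including matches on the opposite strand, overlapping matches run together, and each sequence is 5′ to 3′ on the gene's strand.
Isg15: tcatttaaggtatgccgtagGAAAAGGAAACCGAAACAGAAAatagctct
Ifit1: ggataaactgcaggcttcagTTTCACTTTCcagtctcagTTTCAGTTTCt
Oas3: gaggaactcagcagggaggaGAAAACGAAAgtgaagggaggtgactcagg
Rsad2: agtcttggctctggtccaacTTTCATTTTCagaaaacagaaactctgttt
Trim30a: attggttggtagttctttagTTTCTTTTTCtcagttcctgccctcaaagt
Ddx60: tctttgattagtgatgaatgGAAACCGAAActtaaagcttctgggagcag
The stretches are at chr4:156200867-156200916 (minus strand), chr19:34640765-34640814 (plus), chr5:120777705-120777754 (minus), chr12:26456543-26456592 (minus), chr7:104465200-104465249 (minus) and chr8:61928014-61928063 (plus) in GRCm38.p6.

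Ifitm3, whose difference of 0.19 did not pass, also held 2 matches. The kappaB site, searched on both strands as GGGA, any 4 bases, then CC, occurred in 28.1% of the interferon-stimulated genes with a window in 28.4% of tested genes and in 9 of 18 genes of the IL-22 and STAT3 list. The STAT letters TTCNNNGAA, also searched on both strands, occurred in 8.83% of tested genes, in 21.9% of the interferon-stimulated genes with a window, and in 1 of the same 18, Socs3. That match was in capitals at chr11:117969492-117969540 (minus strand).
Socs3: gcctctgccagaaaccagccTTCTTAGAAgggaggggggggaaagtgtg

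MHC class II genes rose. Of 9 measured (11 listed), 8 rose and 0 fell, with a median of 1.81, beside 36.9% higher and a median of 0.30 over all features. H2-Aa, the alpha chain of I-A, read -3.02, -2.76, -3.13 and -2.37 in wild type and -0.63, -1.40, 0.32 and 0.26 in the knockouts, a rise of 2.46 ± 0.43 (SE, adjusted p = 0.00034 by limma). Cd74, the invariant chain, read 1.50, 1.11, 1.02 and 1.49 against 3.09, 3.08, 4.06 and 3.98 and rose by 2.27 ± 0.43. The peptide-loading chains H2-DMb1 and H2-DMa rose by 2.09 and 1.94. Ciita, the master regulator of these genes, differed by 0.27 and did not pass. Quantile normalization and normexp each left 6 rises, beside 22.4% and 7.62% of all features higher in these settings. The summed signal of the list, 9.05 to 11.3 in wild type, was 25.5 to 52.6 in the knockouts.

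The level was not the highest of the study. H2-Aa was below the Tlr4 knockouts by -1.85 (adjusted p = 0.003), above the Trif mutants by 4.17 (adjusted p = 8.7e-07) and differed from the Tlr3 knockouts by -0.31 (adjusted p = 0.55). Cd74 was placed alike, at -1.68, 5.00 and 0.14 against the Tlr4 knockouts, the Trif mutants (3 of whose 4 arrays gave a value for Cd74) and the Tlr3 knockouts (adjusted p = 0.8). Some cells of the B lineage and the myeloid lineage also carry MHC class II. Of 13 measured B and plasma cell markers 7 rose, beside 36.9% of all features higher. Their summed signal was 0.756 to 1.12 in wild type and 1.29 to 2.01 in the knockouts. Of 17 myeloid markers 7 rose and 1 fell, close to the 36.9% higher over all features, with sums of 39.1 to 76.0 against 93.7 to 198. Lyz2, which has a near-identical Paneth cell copy in Lyz1, made up most of the myeloid sum. In bulk samples more cells of a type and more RNA per cell cannot be told apart, and the part of these cells in the MHC class II result was not tested. Of MHC class I processing genes, 4 of 18 fell and 1 rose, with the peptide transporter chains Tap1 and Tap2 at -0.72 and -0.81.

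**Figure D2:**
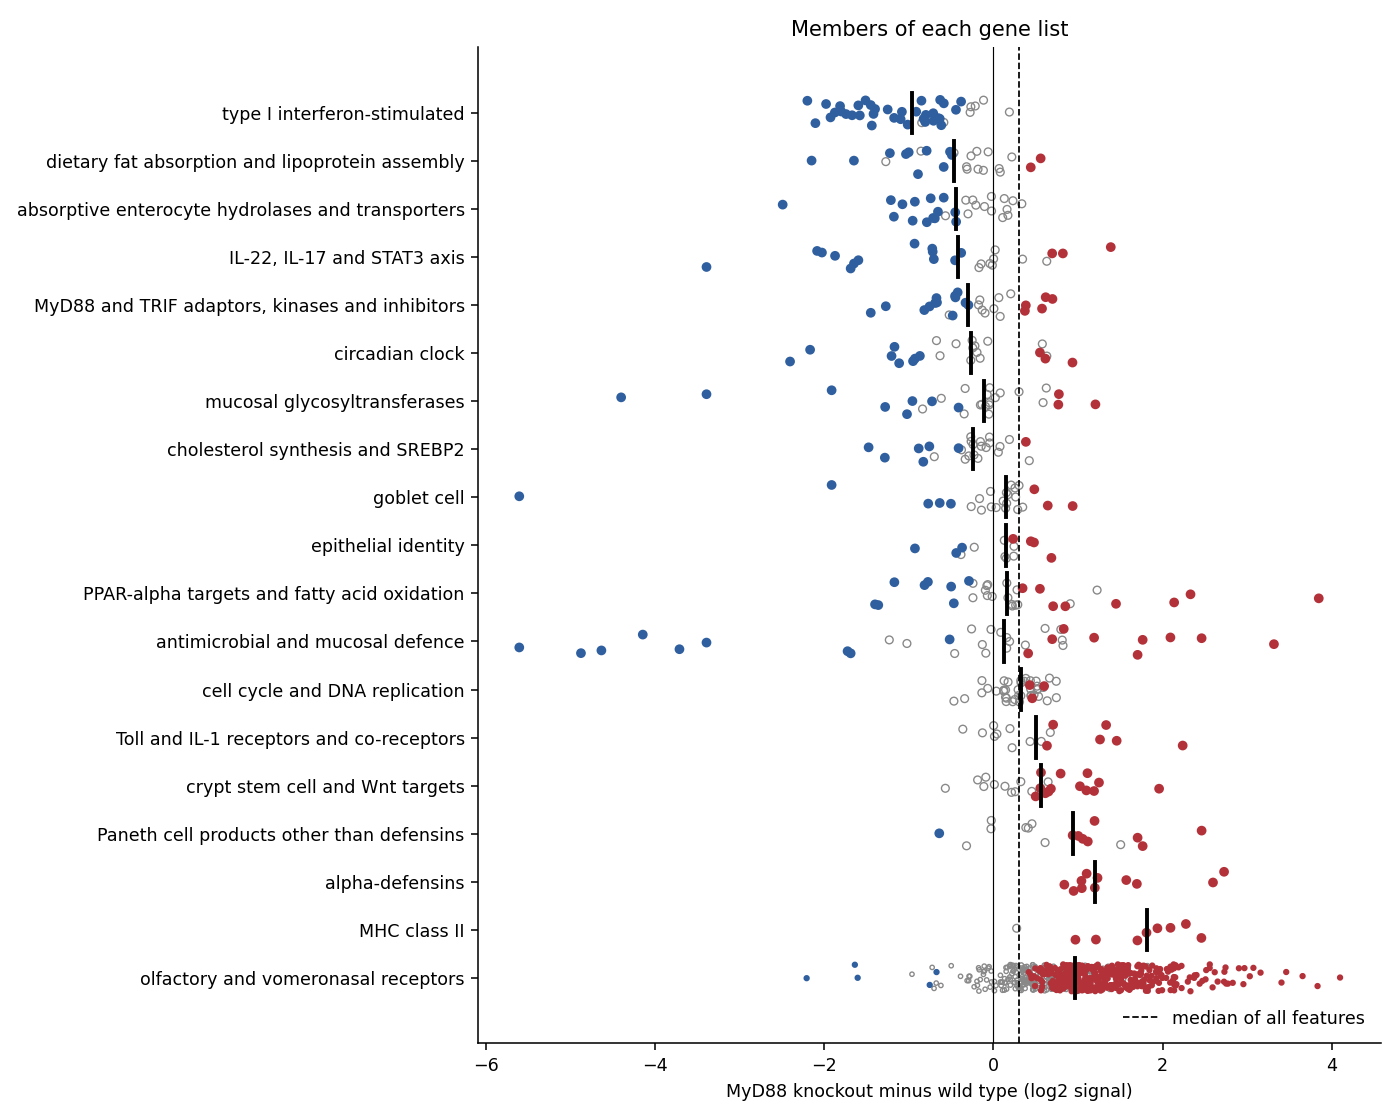
Difference between MyD88 knockout and wild type (log2, horizontal axis) of every measured member of 19 gene lists; filled red and blue points rose and fell (adjusted p under 0.05), open points did not pass, thick bars are list medians and the dashed line is the median of all features, 0.30. Type I interferon-stimulated genes lie at the left with a median of -0.96, MHC class II genes at the right with 1.81, and olfactory and vomeronasal receptors, dim on these arrays, at 0.96.

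Alpha-defensins were higher, beside the 36.9% of all features that rose. All 11 measured alpha-defensins (29 listed; the array reads near-identical copies, so single members are uncertain) rose, with a median of 1.20. Defa22 read 4.71, 3.75, 3.23 and 3.01 in wild type and 6.58, 5.41, 7.61 and 5.48 in the knockouts, a rise of 2.59 ± 0.55 (SE, adjusted p = 0.0012 by limma), and Defa21 rose by 1.69 ± 0.40. Defa-rs12 rose by 2.72. Without wild type replicate 4, the lowest of its group, 5 of 11 rose, and without MyD88 replicate 3, the highest, 6 rose. Quantile normalization left 4 rises, median scaling 3 and normexp 6, with 0 falls each. Of 17 other Paneth cell products measured (19 listed), 8 rose and 1 fell. Leaving out wild type replicate 4 left 5 rises, beside 6875 rises among all 21910 features. In 1 of the 17 the 4 knockout arrays all lay above the 4 wild type arrays, against 30.5% of all features. The summed signals overlapped, at 529 to 657 in wild type and 535 to 969 in the knockouts.

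Ang4, an antimicrobial ribonuclease, rose from 2.25, 0.84, 0.46 and 0.16 to 3.91, 2.37, 5.61 and 1.65, by 2.46 ± 0.67 (SE, adjusted p = 0.0066 by limma). The lysozyme Lyz1 rose by 1.70 ± 0.52 and the lectin Itln1 by 1.76 ± 0.53. In Ang4, Itln1 and Lyz1 the groups overlapped, MyD88 replicate 3 was the highest of all 8 arrays and wild type replicate 4 the lowest. With Xist as a covariate 2 of the 17 rose, and the Ang4 and Itln1 calls were lost (adjusted p = 0.13 and 0.14). All 3 were above the Tlr4 and Tlr3 knockouts, Lyz1 by 2.26 and 3.88, and Itln1 and Lyz1 were above the Trif mutants, by 3.12 and 2.94.

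The antimicrobial list as a whole was split, with 9 of 34 measured members (38 listed) higher and 9 lower and a median of 0.12. Over all features 36.9% were higher and 12.4% lower, with a median of 0.30. Besides the Paneth products, Slpi, an antiprotease, rose from -5.81, -3.99, -4.25 and -5.83 to -1.22, -1.54, -2.55 and -1.31, by 3.31 ± 0.56 (SE, adjusted p = 0.00023 by limma), and the oxidase Nox1 rose by 2.09, a call lost after normexp (0.60, adjusted p = 0.56) and cyclic loess (1.08, adjusted p = 0.14). The Reg3 lectins, known targets of MyD88 signalling in the small intestine, did not pass: Reg3b differed by 0.16, Reg3g by -0.03 and Reg3a by -0.26. Duox2 and Nos2 differed by 0.81 (0.11 without MyD88 replicate 1) and 0.19 without passing. Lcn2, the siderophore-binding lipocalin, differed by -1.02 without passing, but passed after quantile normalization (-1.92, adjusted p = 0.012 by limma), cyclic loess (-1.96), median scaling (-1.43) and with a floor at the background (-1.02). Pigr, which carries IgA into the lumen, fell by 0.52, a call lost without MyD88 replicate 1 (adjusted p = 0.056).

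Goblet cell genes, Retnlb among them, were called in both directions. Of 25 measured, 5 fell and 3 rose, with a median of 0.14. Over all features 12.4% fell and 36.9% rose, with a median of 0.30. Muc2, the secreted gel mucin, differed by -0.26 and Tff3 by 0.26, and neither passed. The membrane mucins Muc3 and Muc13 fell by 0.77 and 0.63, and Spink4 rose by 0.94 ± 0.17 (SE, adjusted p = 0.00047 by limma).

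Crypt genes were higher in mean log2 signal but not in summed signal. Of 24 stem cell and Wnt target genes, 13 rose and 0 fell, with a median of 0.56, beside 36.9% higher and a median of 0.30 over all features. The summed signal was 96.4 to 120.3 in wild type and 108.9 to 113.5 in the knockouts. Ascl2, the transcription factor of the stem cell state, read -1.74, -1.95, -1.93 and -2.19 in wild type and -0.81, -0.68, -0.59 and -0.75 in the knockouts, a rise of 1.25 ± 0.14 (SE, adjusted p = 1.1e-05 by limma). Olfm4, a marker of crypt base cells, read 1.96, 1.46, 1.00 and 1.12 against 3.33, 3.68, 3.14 and 3.23 and rose by 1.96 ± 0.58. Neither gene's groups overlapped, nor did those of Lgr5 and Myc. Ascl2 was above each other mutant by 1.07 to 1.13, whereas Olfm4 was above the Trif mutants by 5.24 and the Tlr3 knockouts by 3.78 and differed from the Tlr4 knockouts by 1.35 (adjusted p = 0.065).

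Lgr5, the stem cell receptor, rose by 1.02 and Myc by 1.11, calls lost without MyD88 replicate 2 (adjusted p = 0.057 and 0.05) and, for Myc, without wild type replicate 2 (adjusted p = 0.057). Without MyD88 replicate 2, the highest of its group in this list, 4 members rose, and without wild type replicate 4, 8 rose. Over all 21910 features, 7829 and 6875 rose in the same settings. Quantile normalization gave 11 rises and 1 fall, but median scaling 2 rises and 2 falls. Of 42 cell cycle and DNA replication genes, 3 rose and 0 fell, with a median of 0.32, close to that of all features. With Xist as a covariate 27 rose, and without wild type replicate 2 or 4 or MyD88 replicate 1 there was 1 rise.

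**Figure D3:**
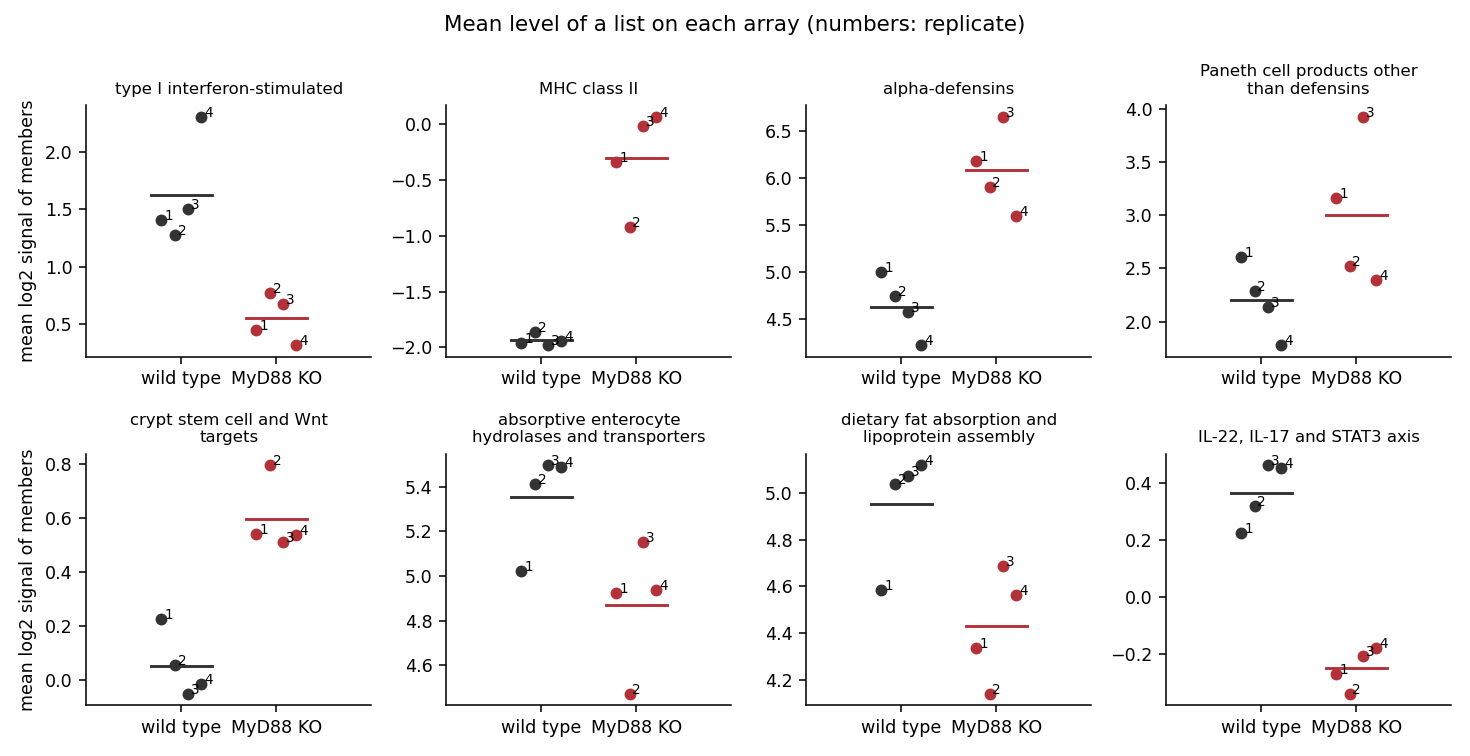
Mean log2 signal of the members of 8 gene lists (vertical axis, relative to each array's 75th percentile) in the 4 wild type and 4 MyD88 knockout animals, with the replicate number beside each point and a line at the group mean. Wild type replicate 4 stands above the others in the interferon-stimulated list, at 2.30, and MyD88 replicate 3 is the highest in both Paneth cell lists.

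Genes of the mature enterocyte were lower. Of 28 hydrolases and transporters of absorptive cells, 14 fell and 0 rose, with a median of -0.45. Over all features 12.4% fell and 36.9% rose, with a median of 0.30. Slc2a5, the fructose transporter, read 5.66, 5.98, 5.79 and 6.27 in wild type and 4.50, 4.37, 5.11 and 5.02 in the knockouts, a fall of 1.18 ± 0.22 (SE, adjusted p = 0.00047 by limma). Alpi, intestinal alkaline phosphatase, fell by 1.21 and Ace by 1.08, but the 2 further Ace probes differed by -1.49 and 0.41. Tmprss15, enteropeptidase, fell by 2.49 ± 1.00, a call lost without any of the 8 arrays other than MyD88 replicate 3 (adjusted p = 0.056 to 0.12). Wild type replicate 1 was the lowest of its group in this list. Without wild type replicate 4 the list had 9 falls and without MyD88 replicate 2 it had 8. Normexp left 5 falls and the Xist covariate 8. In these 4 settings, in the same order, 2237, 2339, 1196 and 2170 of all 21910 features fell.

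Of 25 genes of dietary fat absorption and lipoprotein assembly, 10 fell and 2 rose, with a median of -0.47. Over all features 12.4% fell and 36.9% rose. Apob, the scaffold of the chylomicron, read 6.04, 6.36, 6.55 and 6.50 in wild type and 4.18, 3.86, 4.24 and 4.57 in the knockouts, a fall of 2.15 ± 0.21 (SE, adjusted p = 3.9e-06 by limma). Its 4 further probes differed by -2.46 to -2.10, and it was lower than in each other mutant, by -2.52, -1.79 and -2.30 against Trif, Tlr4 and Tlr3. Apoa4 fell by 1.65 ± 0.29 and Dgat2, which makes triglycerides, by 1.22 ± 0.24. The fatty acid binding proteins Fabp1 and Fabp2 rose by 0.56 and 0.44, rises that quantile normalization did not leave (0 rises of 25).

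Genes of the proximal gut varied widely between animals. Of 14 measured duodenal genes (16 listed), 4 fell (2 without wild type replicate 4) and 1 rose, with a median of -1.01. Over all features 12.4% fell and 36.9% rose. S100g, the vitamin D-induced calcium-binding protein, read 5.28, 6.50, 6.34 and 7.09 in wild type and 6.12, 3.57, 3.51 and 3.50 in the knockouts. It fell by 2.13 ± 0.77 (SE, adjusted p = 0.031 by limma), with MyD88 replicate 1 inside the wild type range. That call was lost without wild type replicate 2, 3 or 4 or MyD88 replicate 2, 3 or 4 (adjusted p = 0.053 to 0.085). The calcium channel Trpv6 and the iron reductase Cybrd1 differed by -2.99 and -2.25 and did not pass.

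Stomach-type peptides were high in 3 of the 4 knockouts. Tff1, a gastric trefoil peptide, read -2.49, -2.35, -1.28 and -2.41 in wild type and 3.11, 6.88, -2.01 and 1.80 in the knockouts, a rise of 4.58 ± 1.15 (SE, adjusted p = 0.0039 by limma). Gkn2, a gastrokine, read -5.67, -3.55, -1.89 and -5.30 against 3.17, 6.84, -5.17 and 2.04 and rose by 5.82 ± 1.75. Tff2 rose by 5.19 ± 1.39 and Muc5ac, the surface mucin of the stomach, by 3.01 ± 0.65. In a fit of only the 8 arrays the Gkn2 and Tff2 calls were lost (adjusted p = 0.067 and 0.053 by limma). In Gkn2, Tff2 and Tff1 MyD88 replicate 2 was the highest and MyD88 replicate 3 lay inside the wild type range. Of 13 measured pancreatic and gastric markers 7 rose and 0 fell, beside 36.9% of all features higher. Their sums were 0.938 to 1.81 in wild type and 1.55 to 257 in the knockouts. With Xist as a covariate 2 rose, beside 5744 of all 21910 features. The part of stomach tissue in the preparations was not tested.

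Metabolic lists were mixed. Of 32 measured genes of fatty acid oxidation and PPAR-alpha response (33 listed), 8 rose and 8 fell. Angptl4, an inhibitor of lipoprotein lipase, rose by 2.33 ± 0.43 (SE, adjusted p = 0.0005 by limma), from 1.69 to 3.38 in wild type to 4.24 to 5.32. It differed from the Trif, Tlr4 and Tlr3 mutants by -0.43, -0.44 and -0.14 (adjusted p of 0.39 to 0.8). Acot1, an acyl-CoA thioesterase, rose by 2.13, and Acacb, the carboxylase that restrains mitochondrial fat entry, by 2.95 ± 0.31. The water channel Aqp8 rose by 2.54, and Mt2, a metallothionein, rose by 2.29 ± 0.48, from 2.62, 3.70, 3.83 and 3.15 to 5.16, 5.10, 5.83 and 6.36.

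Circadian genes differed, and the labels give no hour of sampling. Of 23, 8 fell and 3 rose, with a median of -0.27, beside 12.4% lower and 36.9% higher over all features. Dbp, a clock output transcription factor, read 4.57, 4.69, 4.55 and 4.89 in wild type and 1.87, 1.29, 3.54 and 2.39 in the knockouts, a fall of 2.40 ± 0.42 (SE, adjusted p = 0.00034 by limma). Tef fell by 1.20 ± 0.29 and Nr1d2, a repressor of the clock loop, by 1.17 ± 0.26, while Per1 rose by 0.93 and Arntl, the positive arm of the loop, by 0.61. The Per1 call was lost without wild type replicate 3 or MyD88 replicate 3 or 4 (adjusted p = 0.064 to 0.075), and that of Arntl without MyD88 replicate 1 or 2 (adjusted p = 0.051). Dbp was lower than in each other mutant, by -3.66, -2.25 and -3.62 against Trif, Tlr4 and Tlr3.

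Lists of stress and growth-factor responses differed among themselves, beside 12.4% of all features lower and 36.9% higher. Of 23 immediate early genes 6 fell and 1 rose. Atf3 fell by 2.23 ± 0.49 (SE, adjusted p = 0.0016 by limma), Dusp6, the phosphatase of ERK, by 1.69 and Klf4, a factor of the differentiated epithelium, by 1.24, while Nr4a1 rose by 1.09. Of 21 measured ATF4 response and serine synthesis genes 8 fell and 3 rose, of 22 endoplasmic reticulum chaperones 7 fell and 1 rose, of 19 measured heat shock genes 1 fell and 5 rose (2 without MyD88 replicate 3, 3 without wild type replicate 1 or MyD88 replicate 2), and of 25 cholesterol synthesis genes 6 fell and 1 rose (3 fell without wild type replicate 1 or 2). Hsd17b7 fell by 1.48 ± 0.15 and Insig1 by 0.88 ± 0.20. Of 22 measured tight junction genes 5 fell and 4 rose: Cldn4 fell by 2.16 ± 0.61 and Pard6b by 1.06, and Cldn8 rose by 1.91. Without wild type replicate 1 or 2 or MyD88 replicate 1, 2 or 4 there were 2 rises of tight junction genes. Of 47 measured xenobiotic enzymes (49 listed) 8 fell and 5 rose. Without wild type replicate 1 there were 2 rises, without wild type replicate 3 or 4 or MyD88 replicate 2 or 4 there were 3, and without wild type replicate 4 or MyD88 replicate 2 there were 5 falls. The cytochromes Cyp2b10 and Cyp2j6 fell by 2.03 and 1.12.

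NF-kappaB targets were called in both directions. Of 28 measured (33 listed) 5 rose and 6 fell, with a median of -0.07. Over all features 36.9% rose and 12.4% fell, with a median of 0.30. Quantile normalization gave 4 rises and 8 falls, beside 22.4% higher and 15.4% lower over all features. The summed signal of the list was lower without overlap, 194 to 208 in wild type and 152 to 176 in the knockouts. Zc3h12a, the ribonuclease that degrades inflammatory transcripts, rose by 1.27 ± 0.17 (SE, adjusted p = 4.9e-05 by limma) and the surface protein Cd83 by 1.60 ± 0.29. Outside this list, the chemokine Cxcl16 fell by 1.17. Nod2, the sensor of muramyl dipeptide and a member of the NOD-like receptor list, rose by 1.51 ± 0.22, a call lost after normexp (adjusted p = 0.22).

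**Figure D4:**
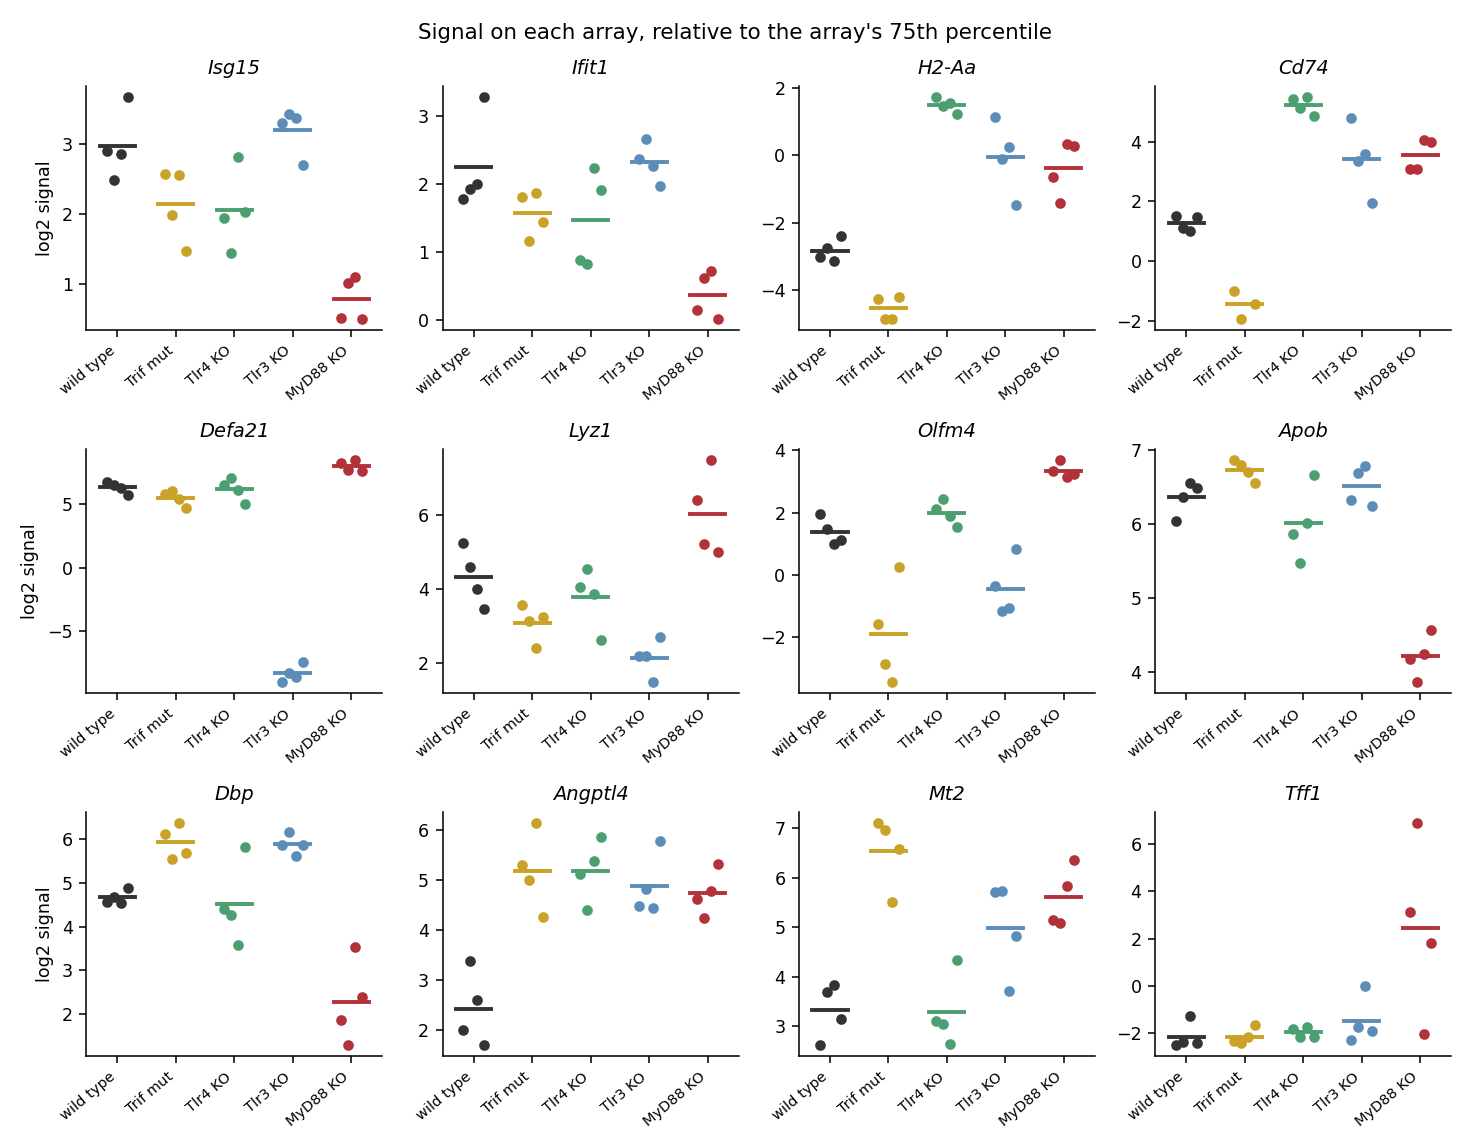
Log2 signal relative to the array's 75th percentile (vertical axis) of 12 genes from the interferon, MHC class II, Paneth cell, crypt, lipid, clock and gastric groups in the 5 genotypes (horizontal axis); points are arrays, lines are means, and Cd74 has 3 Trif points. Isg15, Ifit1, Apob and Dbp are lowest in the MyD88 knockouts, and Tff1 is high in 3 of the 4 MyD88 knockouts.

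The largest rises were mostly in genes close to the background. The 12 named by the rule, chosen by these values with the 5 sex-linked genes left out, were Mrgpra2b, Ssty1, Dlx5, Rab11fip5, Fam186b, Ceacam10, Ntng1, Olfr761, Mup10, Rspo1, Has2 and Emx2, with differences from 4.92 down to 3.87. Ssty1 is also a chromosome Y gene and was not among the 5. In Mrgpra2b, Ssty1, Ntng1, Olfr761, Mup10, Rspo1 and Has2 none of the 4 wild type arrays was well above background, so their folds are bounds, from at least 3.51-fold (Mup10) to at least 6.80-fold (Mrgpra2b). After normexp these 7 and Emx2 lost the call (adjusted p of 0.059 to 0.41). Ceacam10, an adhesion molecule of the CEA family, was the rise with the highest level: it read -4.18, -4.61, -4.22 and -6.80 in wild type and -0.76, -0.15, -0.73 and -0.10 in the knockouts, and rose by 4.52 ± 0.46 (SE, adjusted p = 5.8e-06 by limma). It was above the Trif mutants by 5.39 and differed from the Tlr4 knockouts by 1.01 (adjusted p = 0.08). A further probe for Rab11fip5 differed by 0.66. Among bright features the largest rise was the bicarbonate transporter Slc4a7, at 3.55 ± 0.60, but its 2 further probes differed by -2.74 and -1.72.

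The direction of a difference went with the signal. Of 622 features with a mean log2 signal under -7 the median difference was 1.09, and 42.4% were higher and 1.45% lower. In the 4361 features over 2 the median was -0.01, with 19.9% higher and 22.8% lower. Olfactory and vomeronasal receptors, which the gut epithelium is not known for, showed it as a family: of 644 measured (1047 listed) 389 were higher and 5 lower, with a median of 0.96, while quantile normalization gave 158 higher and 21 lower and normexp 14 higher and 1 lower. Between 0 and 2 the median was 0.04, with 22.9% higher and 20.5% lower.

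**Figure D5:**
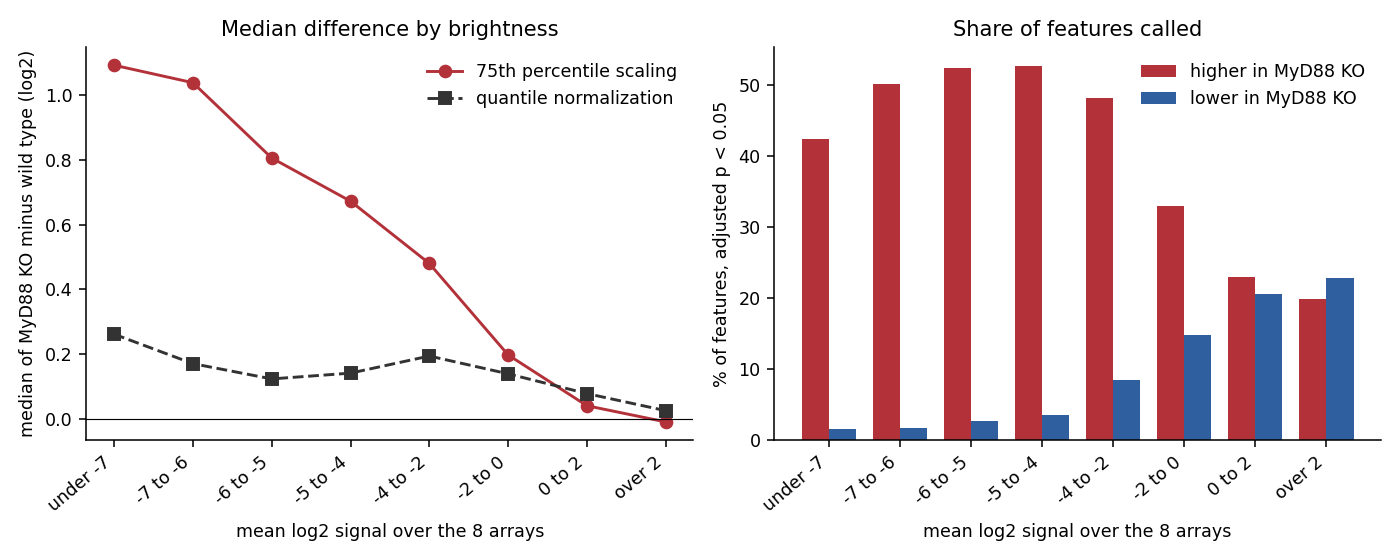
Left, median difference between MyD88 knockout and wild type (log2, vertical axis) of features binned by mean log2 signal over the 8 arrays (horizontal axis), with 75th percentile scaling and with quantile normalization. Right, percent of features in each bin called higher (red) and lower (blue); under -7 the medians are 1.09 and 0.26, and over 2 the called shares are 19.9% and 22.8%.

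Markers of non-epithelial cells differed by type, beside the 36.9% of all features that rose. Of the stromal and muscle markers 11 of 15 rose and 0 fell, of endothelial 7 of 12 and 0, of glia and neuron 7 of 9 and 1, of mast cell 7 of 9 and 0, of erythroid 3 of 4 and 0, of neutrophil 1 of 5 and 1, and of T and NK cell 6 of 25 and 0. The T and NK cell rises were 3 without wild type replicate 1 or MyD88 replicate 1 or 4, and the stromal rises were 7 without wild type replicate 1 or MyD88 replicate 2. Normexp left 0 called among the B cell, stromal, endothelial, neutrophil and T and NK cell markers, whereas 3 mast cell markers rose. The summed signal of T and NK cell markers was 25.2 to 45.5 in wild type and 24.1 to 42.5 in the knockouts, and that of stromal markers 19.1 to 30.1 against 17.8 to 21.1, so neither sum was higher. The sum of mast cell markers was 0.492 to 0.671 against 1.23 to 2.90, that of endothelial markers 0.885 to 1.03 against 1.25 to 1.83 and that of erythroid markers 0.253 to 0.331 against 0.509 to 0.842, each higher without overlap. The neutrophil sum was lower without overlap, 0.580 to 0.704 against 0.299 to 0.447. The mast cell proteases Mcpt1 and Mcpt4 rose by 2.45 ± 0.62 (SE, adjusted p = 0.0041 by limma) and 1.79 ± 0.41, with MyD88 replicate 3 the highest in both. Of the epithelial identity genes 4 rose and 3 fell, Krt19 by 0.68 and Cdx2, the intestinal transcription factor, by -0.93 ± 0.15.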

How the data were processed

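Total RNA of intestinal epithelial cells, 1 animal per array, was labelled with Cy3 and hybridised to Agilent single-colour arrays. The deposited scanner files hold spot intensity values, read with Agilent Feature Extraction 10.7.3.1 per the file headers, which subtracted the background. The deposited value table holds the same intensity values times a factor per array with a floor of 15, and served as an alternative. Neither holds any other normalization. No array had a saturated spot (0 of 45018), and the number of arrays limits the precision.

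Control spots (1639) and outlier spots were left out. The log2 signal minus the array's 75th percentile was averaged over spots of a probe. Probes that 4 or more of the 20 arrays read well above background were kept, with 1 probe per gene (the highest mean). Gene names came from RefSeq accessions (GRCm38.p6, names and promoters; 26690 of 41174 probes matched), and probe positions from the files (mm9). limma 3.58.1 in R 4.3.3 fitted group means over 20 arrays (residual df 15, prior df 2.17), with Benjamini-Hochberg adjustment. p-values measure the spread between animals. Bounds on folds set the brighter group against the lowest signal well above background in the dimmer group. The fit was tested on simulated data.

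Named genes were the called Toll pathway members, Myd88, Tlr2, Tlr3 and Ticam1, the 12 largest rises and falls whose groups do not overlap (5 sex-linked genes left out), and up to 4 members of each list by size of difference. Array values, other list members, bright features and the members of 1 list that did not pass were added after their values were seen. The groups, members and lists were chosen with earlier results of these data known, so no list gets a test. Cyclic loess, the count of olfactory and vomeronasal receptors apart and the largest rises and falls of bright features were chosen after seeing the data. Some genes that the rule names are not reported here. Replicate numbers name animals and do not pair wild type with MyD88 animals. Same-numbered wild type, Trif, Tlr4 and Tlr3 arrays shared a slide, and each MyD88 array sat on another slide.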

Additional observations from a re-analysis of the deposited data

Results flagged for a closer look

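In 28 of 418 groups of 4 arrays examined (14 wild type, 14 MyD88), 1 array stood far from the other 3 of its group, against about 1 in 20 groups by chance. Wild type replicate 4 was the array apart in 3 interferon-stimulated genes, with 4.10 in Bst2, 3.28 in Ifit1 and 1.58 in Irf9, and in Il18bp, with 1.60, each above its group. It was low in Ceacam10, at -6.80. Wild type replicate 2 was low in Myd88, at 1.94, in Cpn2, at -0.0277, and in Tirap, at -0.67. Wild type replicate 3 was high in the gastric peptide Tff1, at -1.28, and apart in Duox2, at -1.89. Wild type replicate 1 was low in Mrgpra2b, at -9.05, and had the lowest list means of absorptive enterocyte genes, 5.02, and of fat absorption genes, 4.58. The mean of the NOD-like receptor and inflammasome list was 0.51 in wild type replicate 3, above the others.

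MyD88 replicate 1 was apart in Myd88 itself, at 1.02, in Epcam, at 5.92, in Duox2, at 0.37, and in the duodenal genes S100g, at 6.12, and Trpv6, at -0.78, where it lay above the other knockouts and near wild type. Its mean of the retinoid metabolism list was -0.12. MyD88 replicate 2 was high in Muc5ac, at 2.56, low in Rab11fip5, at -3.13, in Irak2, at 1.53, and in Stat3, at 1.46, and had the highest mean of the crypt list, 0.80. MyD88 replicate 3 was apart in Slc4a7, at 5.81, and in Ciita, at -1.78. MyD88 replicate 4 had the lowest mean of the ATF4 and serine synthesis list, 1.34.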

How the results depend on the processing

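The number of features called changed with the setting. Normexp called 2866, 1670 higher and 1196 lower, against 10805, 8087 and 2718. Quantile normalization gave 4901 higher, cyclic loess 4794, and median scaling 3294 higher and 6312 lower. With the Xist signal as a covariate, whose slope comes from differences within genotypes, 7914 were called. Whether sex acts alike in all genotypes was not tested. All probes in place of 1 per gene gave 4945 lower of 31576. Requiring a log2 difference of at least 1 left 4088, 3514 higher and 574 lower. Leaving out each array in turn called 9009 to 10402 (6662 to 7956 higher, 2237 to 2717 lower), and Myd88 then differed by -1.33 to -1.25. With the replicate number as a block 10857 features were called and 1 call of a value in the text, Tmprss15, was lost (adjusted p = 0.052 by limma). Same-numbered wild type and MyD88 arrays, which sat on different slides, deviated with correlations of -0.23, -0.03, -0.04 and -0.04, so the numbers do not pair these animals. The direction turned for Traf3 after median scaling (-0.035), for Irf5 after quantile normalization (-0.054) and median scaling (-0.024), for Sarm1 after quantile normalization (-0.11) and cyclic loess (-0.20), and for Retnlb against Trif mutants after normexp (-0.41), and the cause was not tested. Of 157 genes named, 138 were called, 81 of these under every alternative run, and 16 lost the call with 1 array left out, at an adjusted p of at most 0.138 (limma). Calls were also lost after normexp for Lyz1, Muc13, Nr4a1, Cldn8, Fabp1, Fabp2, S100g and Bst2. Median scaling ended those of Lgr5, Myc, Per1, Arntl, Lyz1 and Krt19. With the Xist covariate they were lost for Defa21, Lifr, Bst2, Pigr, Alpi, S100g, Tff1, Tff2, Gkn2, Per1, Arntl and Mcpt1. That covariate also ended the calls of Tab3, Map3k7, Traf3, Irak3, Sarm1, Irf5, Il1r1, Ly86 and Tmprss15. A fit of only the 8 arrays, without the spread of the other mutants, called 9920 features. The calls of Tirap, Irak3, Sarm1, Il1r1, Lifr, Bst2, Itln1, Fabp1, Gkn2, Tff2 and Per1 were then lost (adjusted p = 0.0505 to 0.107 by limma). Trpv6 passed in that fit (adjusted p = 0.017). Signal near the background limits the dim genes: 1614 features were well above background on none of the wild type arrays.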

Other observations

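In secretory lineages other than Paneth and goblet cells, calls were no more frequent than over all features. Of 28 measured enteroendocrine genes 9 rose and 0 fell, with a median of 0.30, the same as over all features, of which 36.9% rose. Of 24 measured tuft cell genes 3 rose and 2 fell (1 without wild type replicate 1 or 4 or MyD88 replicate 1, 2 or 3), with a median of 0.06. Of 22 measured interferon-gamma induced genes 4 fell and 2 rose (4 without wild type replicate 4), with a median of -0.31, beside the 35 of 42 type I genes that fell. Ileal genes (18 measured, 4 higher, 1 lower) and colonic genes (16 measured, 5 higher, 2 lower) had medians of -0.23 and 0.20, and the ileal fall was lost without wild type replicate 2 or 3 or MyD88 replicate 2. Of 38 mitochondrial respiratory chain genes 9 rose (5 without MyD88 replicate 4) and 1 fell, with a median of 0.07. After normexp 0 of 19 heat shock genes were called. Of 24 measured retinoid metabolism genes 4 rose and 3 fell (5 without MyD88 replicate 3), and of 20 NOD-like receptor and inflammasome genes 4 rose and 3 fell.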
